A study of Homo sapiens with 6 samples.

Results

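The MER-named short DNA transposons are a group of repeat consensus sequences whose names start with MER, for medium reiterated sequence, and carry a number assigned here to short DNA transposons. Members were chosen by a pattern in the name, with earlier results of these data known. Of the 1047 sequences in the deposited quantification tables, 77 matched, and they carry 36 different MER numbers. By background knowledge of repeat classification, 43 of the 77 belong to the hAT superfamily, 13 to the Tigger group and 4 to the piggyBac superfamily, and 17 were not placed. Because near-identical names can exchange reads, the tests were also run on sums by MER number.

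RNA was measured in 6 libraries of H1, a human embryonic stem cell line. Passage is given as 40 to 60 for every library. Every library, controls included, came from cells carrying a short hairpin RNA against EXOSC3 that doxycycline (dox) switches on, grown in medium with puromycin and Blasticidin S. The groups were EXOSC3r cells with dox (2 libraries), EXOSC3r cells without dox (2 libraries), PB cells with dox (1 library) and PB cells without dox (1 library). EXOSC3r cells carry a hairpin-resistant EXOSC3 transgene and are represented by 2 clones, each sampled with and without dox, while PB cells carry the empty vector. Each EXOSC3r library is 1 clone and PB has no replicate, so p-values measure only the spread between these clones. EXOSC3 itself was not analysed here, so neither its depletion nor its restoration was checked. Of the repeat sequences known for transcription in human pluripotent cells, HERVH had 20520 to 35679 CPM (counts in each library brought to 1 scale) in all 6 libraries. LTR7A, LTR7B, LTR7C and LTR7Y, also in that set, had counts in all 6 libraries as well.

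The RNA exosome is a multi-subunit nuclease that shortens or destroys RNA starting at the 3′ end, and EXOSC3 is one of its non-catalytic subunits. The short MER elements are fossils of cut-and-paste DNA transposons: they kept the terminal inverted repeats that a transposase recognises but lost, or never had, the gene for the transposase, and so depended on larger relatives such as Charlie (hAT) or Tigger elements. None is thought to move in the human genome today, and many copies lie in introns and other transcribed parts of genes, where reads of the host transcript also count for the element. Each consensus sums over its copies across the genome, so no coordinates belong to these values. RNA came from whole cultures, so a change in the make-up of the cells and a change in RNA per cell cannot be told apart.

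Of the 77 members, 68 had a count in at least 1 library and 56 in all 6. The filter of at least 10 counts in at least 1 library left 55 for testing, which were 33 hAT, 11 Tigger and 3 piggyBac members and 8 not placed, and 13 members had counts too low for it. The 9 members without any count were MER80B, MER81, MER91A, MER91B, MER91C, MER94B, MER97B, MER103B and MER104B. A count of 0 allows up to 3 counts, which is 0.542 to 0.767 CPM depending on the library, counting error only.

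Member counts were concentrated in few names. The 5 most abundant members held 54.8% of all member counts, the top 10 held 79.5% and the top 20 held 93.7%. hAT members made up 59.7% to 61.1% of member counts across the 6 libraries, Tigger members 27.8% to 29.6%, piggyBac members 9.07% to 9.94% and members not placed 1.27% to 1.56%. The make-up by superfamily therefore moved by no more than 2 percentage points between any 2 libraries. MER1 alone, the hAT element with the most counts, held 30.2% to 32.6% of them.

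Per unit of length the order was different. On the TPM scale (which divides counts by effective length and scales them to a fixed total), the piggyBac element MER85 had the highest mean over the 6 libraries at 4119 TPM, on a consensus of 140 bases. It was followed by the hAT elements MER30B with 1902 TPM (190 bases), MER30 with 1644 TPM (230 bases), MER107 with 1127 TPM (197 bases) and MER1B with 964 TPM (337 bases). MER1A, the most abundant member by counts, had 922 TPM on 527 bases. Across the 55 tested members, whose lengths ran from 140 to 1581 bases with a median of 338, so that not all are short, length and mean TPM had a Spearman's rho of -0.58. This is a description across sequences that share the same libraries, and TPM itself contains the length. For a consensus as short as MER85, the effective length was 23.8 to 26.6 bases, so a small error in it changes the TPM value much.

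**Figure D1:**
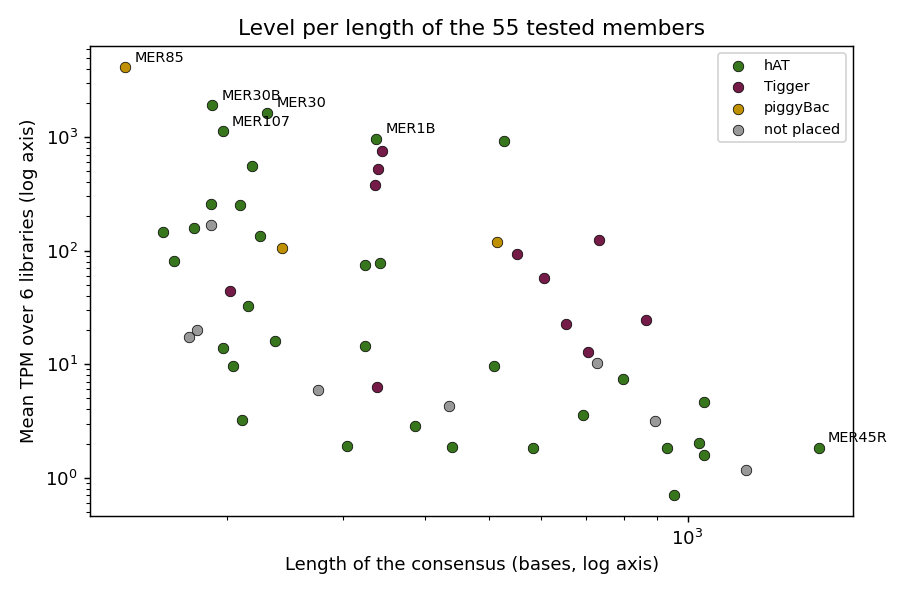
Mean TPM over 6 libraries (log axis) against consensus length in bases (log axis) for the 55 tested members, coloured by superfamily; each point is 1 member. MER85, with 4119 TPM on 140 bases, stands at the top left, and MER45R, with 1.85 TPM on 1581 bases, at the far right.

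As a share of all assigned counts, the members took 0.471% and 0.685% in EXOSC3r clones 1 and 2 with dox, 0.539% and 0.592% in the same clones without dox, 0.686% in PB cells with dox and 0.648% in PB cells without dox. The exact binomial 95% interval, which covers counting error only, was 0.465% to 0.477% for the lowest of these shares and 0.678% to 0.693% for the highest. The clones with dox lay on either side of those without dox, and clone 2 with dox lay between the PB values. Alu, the short interspersed element with the largest count, was highest where the member share was lowest: it took 52.5% and 40.1% of counts in the clones with dox, 45.4% and 41.8% in the clones without dox, 32.99% in PB cells with dox and 37.3% in PB cells without dox. When counts of Alu, ACTB and GAPDH were left out of the denominator, the member share was 1.503% and 1.496% in the clones with dox, 1.433% and 1.3501% in the clones without dox, 1.26% in PB cells with dox and 1.32% in PB cells without dox. On that denominator all 4 EXOSC3r libraries were above both PB libraries, and both clones were higher with dox than without it. The order of the groups thus depended on the denominator.

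**Figure D2:**
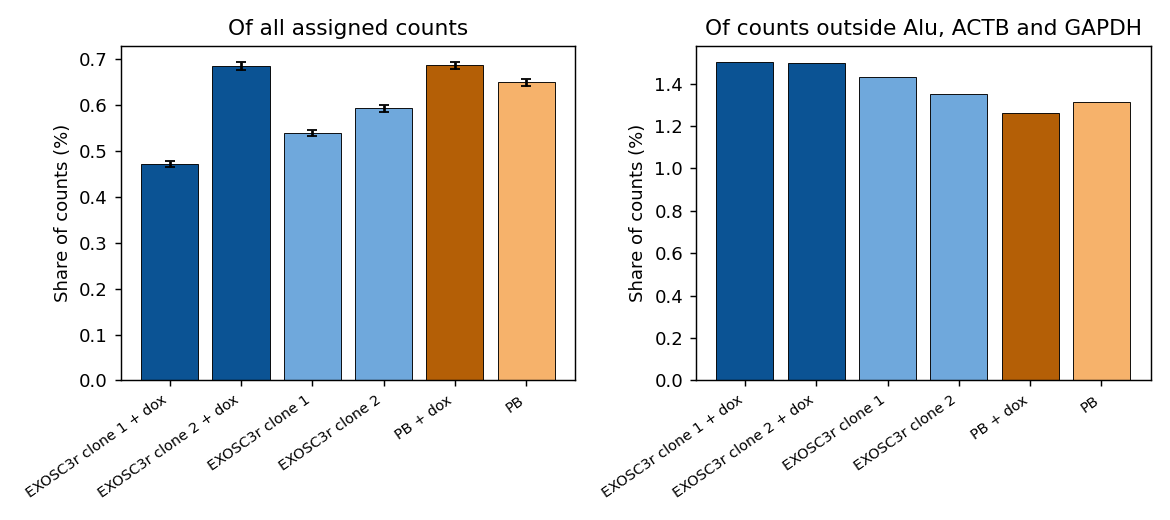
Share of counts taken by all 77 members in each library, in percent of all assigned counts (left, with exact binomial 95% intervals) and in percent of counts outside Alu, ACTB and GAPDH (right); 1 bar is 1 library. On the left, clone 1 with dox is lowest at 0.471%; on the right, both clones with dox are highest at 1.503% and 1.496%.

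In the tests below, counts were scaled by TMM, a method that sets the typical sequence equal between libraries. A change is thus relative to the median sequence. With total counts as the scale, the median of all tested sequences shifted by -0.40 on the log2 scale for EXOSC3r against PB with dox and by -0.26 without dox. With ACTB and GAPDH as the scale it shifted by -0.63 and -0.47 in the same comparisons. On the TMM scale all members together had 6329 and 6247 CPM in the clones with dox (mean 6288 ± 58.1, SD, n = 2), 6166 and 5834 CPM in the clones without dox (mean 6000 ± 234, SD, n = 2), 5653 CPM in PB cells with dox and 5685 CPM in PB cells without dox.

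The members with a hAT origin gave 6 of the 11 MER numbers with a mean sum of at least 100 CPM. MER1, a short derivative of Charlie elements, had 2060 and 1948 CPM in clones 1 and 2 with dox, 1876 and 1761 CPM in the clones without dox, 1710 CPM in PB cells with dox and 1755 CPM in PB cells without dox. All 4 EXOSC3r libraries exceeded both PB libraries, the clones with dox being highest. MER30 had 951 and 959 CPM in the clones with dox, 909 and 886 CPM without dox, 908 CPM in PB cells with dox and 878 CPM without. The clones with dox were again the highest libraries. MER107 had 264 and 260 CPM in the clones with dox, 308 and 244 CPM without dox, 222 CPM in PB cells with dox and 247 CPM without. MER20, a hAT element known for copies that act as enhancers in human endometrial cells, had 175 and 180 CPM in the clones with dox, 177 and 184 CPM without dox, 165 CPM in PB cells with dox and 168 CPM without. MER5, one of the most numerous short DNA transposons of the human genome, had 124 and 120 CPM in the clones with dox, 111 and 113 CPM without dox, 96.1 CPM in PB cells with dox and 102 CPM without. For MER5, as for MER1, all 4 EXOSC3r libraries exceeded both PB libraries. MER58 spread most widely of these 6, with 70.3 and 141 CPM in the clones with dox, 149 and 108 CPM without dox, 94.5 CPM in PB cells with dox and 59.9 CPM without, and is described by name further on.

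Tigger elements are relatives of the pogo and mariner transposons, and 3 of their short derivatives were abundant. MER2 had 761 and 779 CPM in the clones with dox, 759 and 793 CPM in the clones without dox, 724 CPM in PB cells with dox and 726 CPM without. MER44 had 787 and 766 CPM in the clones with dox, 798 and 745 CPM without dox, 706 CPM in PB cells with dox and 737 CPM without. MER6 had 165 and 171 CPM in the clones with dox, 183 and 150 CPM without dox, 151 CPM in PB cells with dox and 159 CPM without. For all 3 the clones with dox overlapped those without dox.

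The piggyBac elements MER85 and MER75 are among the youngest DNA transposons of the primate lineage. MER85 had 400 and 380 CPM in the clones with dox, 391 and 354 CPM in the clones without dox, 354 CPM in PB cells with dox and 362 CPM without. MER75 had 229 and 186 CPM in the clones with dox, 194 and 179 CPM without dox, 189 CPM in PB cells with dox and 167 CPM without. In both, clone 1 with dox was the highest library, and the values of the clones with and without dox overlapped.

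**Figure D3:**
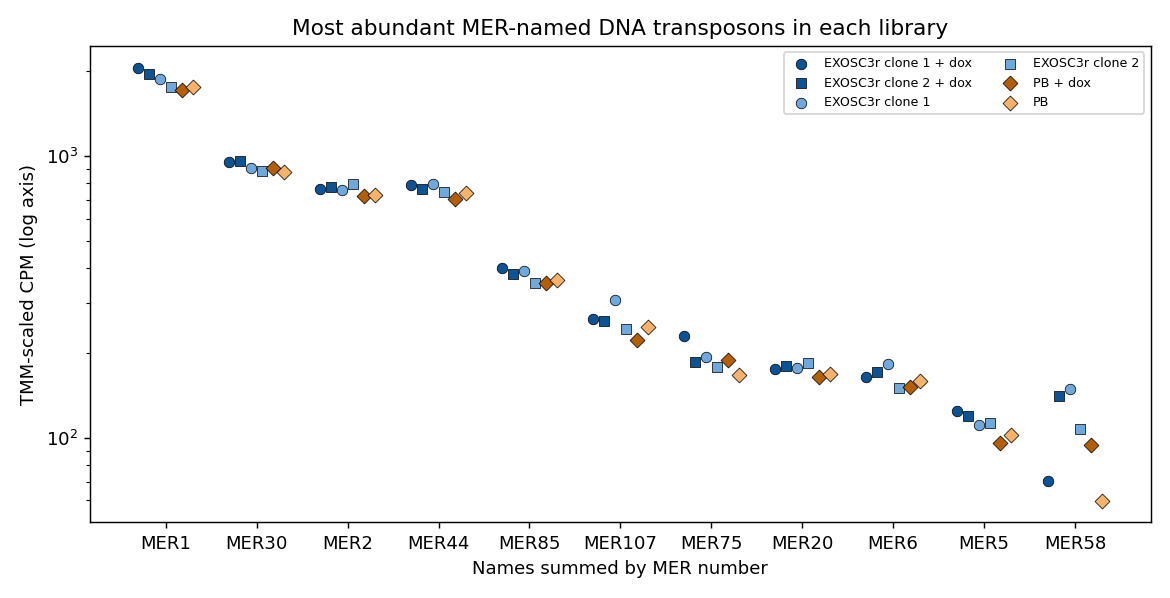
TMM-scaled CPM (log axis) of the 11 MER numbers with a mean of at least 100 CPM; each point is 1 library, blue for EXOSC3r clones and orange for PB cells, darker with dox. In 10 of the 11 the 6 libraries lie close together, and in MER58 they spread from 59.9 to 149 CPM.

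The first comparison asked whether members change when the hairpin is induced in cells with the resistant transgene. No member was called by edgeR's quasi-likelihood test (Benjamini-Hochberg adjusted p under 0.05), where 0.143% of all 699 sequences were called, all of them higher with dox. DESeq2 called 0 members. At an unadjusted p under 0.05 there was 1 member, or 1.82% of those tested, beside 3.15% of all sequences. It was MER1A, with 1435 and 1305 CPM in clones 1 and 2 with dox, against 1228 and 1153 CPM in the same clones without dox. Both libraries with dox lay above both without it, and the log2 change was 0.20 ± 0.08 (SE; edgeR adjusted p = 1.00). The hAT element MER30B had 408 and 432 CPM with dox, against 362 and 385 CPM without dox (log2 change 0.17 ± 0.07, SE). This fit leaves out the pairing of libraries by clone. With the cell line as a block, each clone is compared with itself, and fewer residual degrees of freedom are left to estimate the spread. The changes were then 0.20 ± 0.04 for MER1A and 0.17 ± 0.04 for MER30B (SE; edgeR adjusted p = 0.16 and 0.31). No member was called in the block fit, where 9 of all 699 sequences were. The 55 tested members had a median log2 change of 0.03, beside 0.005 for all tested sequences, and 30 of the 55 lay above 0. Of the 11 abundant sums, 3 did not overlap between the groups and were higher with dox, namely MER1, MER30 and MER5, and the other 8 overlapped. Over all 31 tested sums, 9 were higher without overlap (29%, beside 15.3% of the whole table) and 0 were lower without overlap (0%, beside 14.5%). Among the 9 were MER46, MER105 and MER113 at low levels. MER113 had 1.53 and 2.44 CPM with dox, against 1.49 and 1.00 CPM without dox. The whole table holds mostly single names, so here and below sums are set against sequences that were not summed. These counts were not tested. By name, 12 of the 55 tested members were higher without overlap (21.8%, beside 15.3%) and 6 lower (10.9%, beside 14.7%). The log2 change was 0.14 ± 0.07 for the MER1 sum and 0.09 ± 0.06 for the MER30 sum (SE).

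The same induction in PB cells has 1 library on each side and borrows the spread of the clones. No member was called by edgeR's quasi-likelihood test, where 0.858% of all sequences were called, all of them higher with dox, and DESeq2 called 0 members. At an unadjusted p under 0.05 there were 0 of the 55 members, beside 4.01% of all sequences. Of the 31 sums by MER number there was 1 (3.23%, beside 4.3% of the whole table), and it was not called after adjustment. It was MER69, at a low level, with 3.25 CPM with dox, against 7.61 CPM without dox (log2 change -1.22 ± 0.49, SE). The MER1 sum had a log2 change of -0.04 ± 0.10, the MER30 sum 0.05 ± 0.09 and the MER85 sum -0.03 ± 0.11 (SE). Among single names, MER5B had 20.4 CPM with dox, against 29.7 CPM without dox (log2 change -0.54 ± 0.32, SE). MER6C, a Tigger derivative, had 12.6 CPM with dox, against 8.59 CPM without dox (log2 change 0.56 ± 0.37, SE). Neither difference passed, as the adjusted p was 1.00 in the edgeR test. The median over tested members was 0.02, beside 0.004 for all tested sequences.

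**Figure D4:**
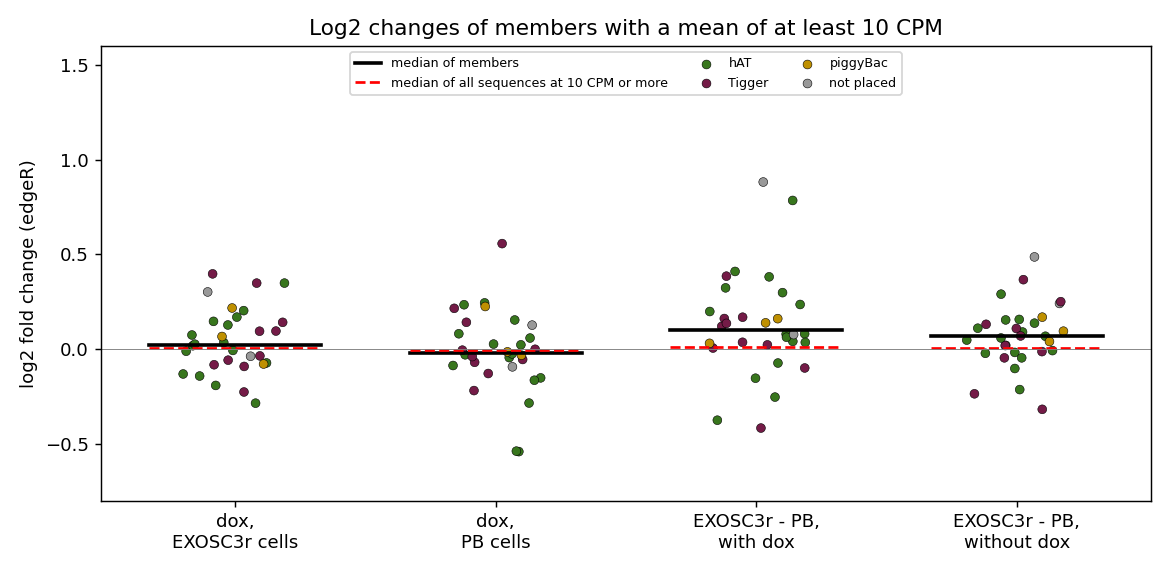
Log2 fold changes (edgeR) in 4 comparisons for 31 members with a mean of at least 10 CPM, coloured by superfamily; black bars are medians of all 32 members at that level and red dashed bars medians of all sequences at that level. MER58A is not drawn, since it was near 0 in PB cells without dox. For EXOSC3r minus PB with dox the medians are 0.10 for members and 0.009 for all sequences, and the comparisons share libraries.

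The difference between both dox responses, EXOSC3r minus PB, was tested as an interaction. No member was called by edgeR's quasi-likelihood test, where 0% of all sequences were called, and DESeq2 called 0 members. At an unadjusted p under 0.05 there were 0 members, beside 1.29% of all sequences. MER5B had the smallest unadjusted p among members of at least 10 CPM that were higher, with a difference of 0.89 ± 0.39 (log2, SE). Its level was 41.4 and 29.0 CPM in the clones with dox, 29.2 and 26.003 CPM in the clones without dox, 20.4 CPM in PB cells with dox and 29.7 CPM in PB cells without dox. Clone 1 with dox and PB cells with dox stood apart from the other 4 libraries, which lay within 4 CPM of each other. The MER1 sum differed by 0.18 ± 0.12 and the hAT element MER33 by 0.41 ± 0.25 (log2, SE).

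EXOSC3r cells were next set against PB cells under induction. No member was called by edgeR's quasi-likelihood test, where 1% of all sequences were called, all of them lower in EXOSC3r cells. DESeq2 called 0 members, and 4 members had an unadjusted p under 0.05, which were MER104C, MER1A, MER5B and MER5A, all higher in EXOSC3r cells. That is 7.27% of tested members, beside 7.58% of all tested sequences. MER104C, whose superfamily was not placed here, had 26.8 and 27.8 CPM in the clones with dox, against 14.8 CPM in PB cells with dox (log2 difference 0.88 ± 0.23, SE; edgeR adjusted p = 0.61). MER5A had 58.8 and 62.1 CPM in the clones, against 45.5 CPM in PB cells with dox (log2 difference 0.41 ± 0.16, SE). The Tigger derivative MER6A had 101 and 103 CPM in the clones, against 77.8 CPM in PB cells with dox (log2 difference 0.38 ± 0.17, SE). In all 3 the clones lay farther from the PB library than from each other. MER1A had 1435 and 1305 CPM in the clones, against 1095 CPM with the empty vector, and differed by 0.32 ± 0.10 (log2, SE; edgeR adjusted p = 0.61). With the cell line as a block the same difference was 0.32 ± 0.05 with an edgeR adjusted p of 0.046, in a fit that called 22 of all 699 sequences (3.15%) and 1 of 55 members, while over all 12 alternatives the adjusted p ran from 0.046 to 0.999. In that fit clone-to-clone spread no longer counts as error, although clones and PB cells are different lines. It also has fewer residual degrees of freedom than the main fit. No MER-number sum was called either, where 0.889% of all 675 sequences and sums were. The MER104 sum differed by 0.77 ± 0.21, the MER5 sum by 0.34 ± 0.12 and the MER1 sum by 0.23 ± 0.09 (log2, SE; edgeR adjusted p = 0.595 each).

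As a group, members lay slightly above the typical sequence in this comparison on the TMM scale. Of the 32 members with a mean of at least 10 CPM, 26 had a log2 difference above 0, or 81.2%, beside 53.6% of all 526 sequences at that level. The median was 0.10 for these members and 0.009 for all sequences at that level. Both clones lay above the PB library for 23 of all 55 tested members (41.8%, beside 34.2% of all tested sequences) and below it for 12 (21.8%, beside 33.6%). Among the 32 members of at least 10 CPM these counts were 19 above (59.4%, beside 37.3% of all sequences at that level) and 6 below (18.8%, beside 33.1%). Of the 11 abundant sums, 9 had both clones above the PB library, the exceptions being MER75 and MER58. Over all 31 tested sums, 19 did (61.3%, beside 35% of the whole table) and 5 had both clones below (16.1%, beside 33.3%). HERVH, a repeat taken as a pluripotent-cell marker, had 20520 and 21047 CPM in the clones with dox, against 35679 CPM in PB cells with dox. LTR7Y was also lower in both clones (4526 and 4112 CPM, against 5267), but LTR7B was higher in both (3319 and 2597 CPM, against 2559). LTR7A (7363 and 5230 CPM, against 6271.5) and LTR7C (103 and 76.5 CPM, against 91.2) lay on either side. The part of these marker sequences in the counts of members was not tested. The counts describe the list and were not tested, and since PB has 1 library its own deviation enters every one of them. The median of all 55 tested members minus that of all tested sequences was 0.073, and 0.032 without clone 2 with dox. Under total counts or ACTB and GAPDH the scale shifts by more than this, so the members' median is below 0 on both of those scales.

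Without dox the same lines were compared with the hairpin not induced. No member was called by edgeR's quasi-likelihood test, where 0% of all sequences were called. DESeq2 called 0 members, and 1 member, MER58A, had an unadjusted p under 0.05 (1.82% of those tested, beside 2.29% of all sequences). MER104C had 21.6 and 22.8 CPM in the clones, against 15.8 CPM in PB cells (log2 difference 0.49 ± 0.23, SE), and MER5A had 54.3 and 55.006 CPM, against 44.7 CPM (0.29 ± 0.16, SE). Neither passed, the edgeR adjusted p being 0.97 for both. MER1A had 1228 and 1153 CPM in the clones, against 1119 CPM in PB cells (log2 difference 0.09 ± 0.09, SE). MER82, a Tigger derivative, was on the other side, with 30.2 and 35.5 CPM in the clones, against 41.0 CPM in PB cells (log2 difference -0.32 ± 0.21, SE). Both clones lay above the PB library for 19 of the 55 tested members (34.5%, beside 34.3% of all tested sequences) and for 11 of the 31 tested sums (35.5%, beside 34.4%), shares near the background. They lay below it for 12 members (21.8%, beside 34.3%) and 8 sums (25.8%, beside 35%). Among the 32 members of at least 10 CPM, 16 had both clones above PB (50%, beside 35.7% of all sequences at that level) and 4 had both below (12.5%, beside 35%). Of these 32 members, 22 had a log2 difference above 0 (68.75%, beside 50.57% of all sequences at that level). Both clones lay above PB for 8 of the 11 abundant sums, the exceptions being MER6, MER107 and MER85. A higher level in EXOSC3r cells was thus also seen without dox among the abundant members. The median over tested members was 0.06, beside 0.011 for all tested sequences, and it too is below 0 under total counts or ACTB and GAPDH.

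MER58A, a hAT element, differed widely between libraries. It had 4.09 and 93.5 CPM in clones 1 and 2 with dox, 81.3 and 38.5 CPM in the clones without dox, 27.1 CPM in PB cells with dox and no whole count in PB cells without dox. The clones with dox were the second lowest and the highest library, so that group spans nearly the whole range. The upper limit of 3 counts for the PB library without dox covers counting error only, not the division of reads between names. Folds over it are therefore no lower bounds. Against that limit, MER58A was 139-fold and 65.8-fold higher in the clones without dox and 46.3-fold higher in PB cells with dox. Its share of all MER58 counts ran from 0.0032% to 66.4%. The other MER58 names together were steadier, with 66.2 and 47.3 CPM in the clones with dox, 67.8 and 69.3 CPM in the clones without dox, 67.6 CPM in PB cells with dox and 60.0 CPM in PB cells without dox. MER58B, the largest of them, had 55.9 and 34.6 CPM in the clones with dox and 51.7 and 58.5 CPM in the clones without dox. In PB cells it had 58.7 CPM with dox and 49.5 CPM without dox. MER58B was lowest in clone 2 with dox, where MER58A was highest. It was second lowest in PB cells without dox, where MER58A was lowest, so the 2 names did not move in opposite directions throughout. The MER58 sum was higher in EXOSC3r than in PB cells without dox by 1.10 ± 0.42 (log2, SE; edgeR adjusted p = 0.96). How reads were divided between these names was estimated by the authors' quantification, and its part in these differences was not tested. With total counts or ACTB and GAPDH as the scale, edgeR called MER58A higher for dox in PB cells, lower for the difference of both dox responses and higher for EXOSC3r against PB without dox. Without the library of clone 2 with dox it was called in the same 3 comparisons and also lower for dox in EXOSC3r cells. That fit has 1 EXOSC3r library with dox, assumed to vary like the other groups, and leaves out the clone that went the other way: the log2 ratio of the library with dox to the one without was -4.31 in clone 1 and 1.28 in clone 2.

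In MER1, MER30 and MER2 the division between names moved less. MER1A held 63.7% to 69.6% of MER1 counts in the 6 libraries, MER30B held 39.9% to 45.004% of MER30 counts, and the name MER2 held 65.5% to 69.4% of MER2 counts. In MER5 and MER6 it moved more, with MER5B at 21.2% to 33.3% of MER5 counts and the name MER6 at 33.5% to 44.3% of MER6 counts. A low-abundance hAT name, MER63C, also varied between libraries, with 4.19 and 11.7 CPM in the clones with dox, 5.58 and 0 CPM in the clones without dox, 4.99 CPM in PB cells with dox and 2.85 CPM in PB cells without dox.

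**Figure D5:**
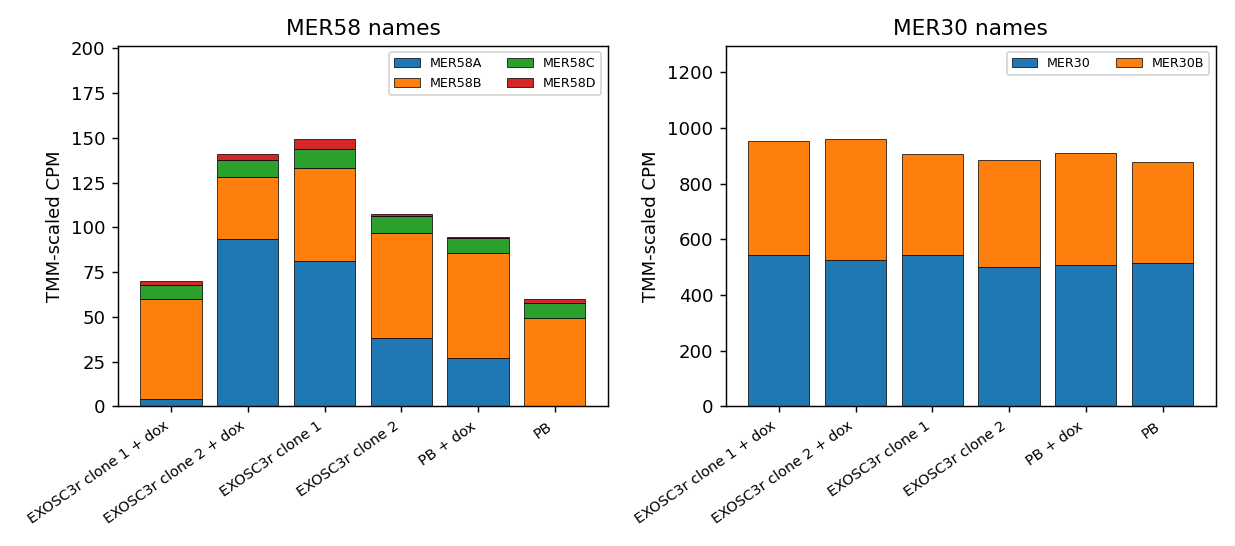
TMM-scaled CPM of the names that make up MER58 (left) and MER30 (right) in each library, stacked; 1 bar is 1 library. MER58A takes between nearly nothing and 93.5 CPM, while MER30 and MER30B keep their proportions.

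The members were set beside a pair of other lists of old repeats. The 53 tested names of other DNA transposons, such as Charlie and Tigger elements themselves, had median log2 differences for EXOSC3r against PB of 0.16 with dox and 0.11 without dox. The 5 tested MIR and L2 names, which are ancient retrotransposons, had 0.25 with dox and 0.33 without dox. The 55 tested members had 0.08 with dox and 0.06 without dox, beside 0.006 and 0.011 for all tested sequences. For dox in EXOSC3r cells the medians were 0.03 for members, 0.06 for other DNA transposons and 0.15 for MIR and L2, and for dox in PB cells they were 0.02, -0.02 and 0.13. The lists use the same libraries, and the differences between them were not tested.

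The replicates bound what could be seen. The clones differed by a median of 0.080 (absolute log2 ratio) over members of at least 10 CPM with dox and by 0.138 without dox, beside 0.132 and 0.136 for all sequences at that level. The median standard error over 31 of these members, MER58A left out, was 0.14 for dox in EXOSC3r cells, 0.20 for dox in PB cells and 0.17 for EXOSC3r against PB with dox. A p that misses the threshold at this size does not show that a member stayed the same.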

How the data were processed

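RNA-seq tables of 6 libraries were used. The tools named per the submitters' processing notes are Salmon 0.13.0, Trimmomatic 0.36 and bcl2fastq 2.17; index and genome build are not given in the sources used here. Per the labels, ribosomal RNA was removed and libraries were stranded. Per the file headers, each deposited table holds an estimated count, a TPM value and lengths for 1047 sequences. The deposited TPM values are scaled over these sequences only, so Alu sets most of the total. Assigned counts were 3745262 to 5260196 per library, which is not sequencing depth.

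Estimated counts were rounded and tested with edgeR 4.0.16 (R 4.3.3): at least 10 counts in at least 1 library, TMM, 4 group means, quasi-likelihood test, Benjamini-Hochberg adjustment over all 699 sequences (675 with members summed). The spread rests on the clones alone (2 residual degrees of freedom), with a biological coefficient of variation of 12.2%; lone PB libraries are assumed to vary like clones. SE is the log2 change over the square root of F. DESeq2 1.42.0, other scalings and filters, a block for the line and leaving out clone libraries were alternatives.

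The libraries of a clone share a cell line, so clone numbers pair samples. Deviations of clone 1 with and without dox correlated at 0.15 over 699 sequences and 0.60 over the 253 of at least 100 CPM, and at -0.10 over 55 members and 0.38 over the 13 of at least 100 CPM, which are not independent replicates. Between libraries, chi-square values over degrees of freedom were 21.0 to 855, so no 2 libraries agreed within sampling noise.

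Named are MER numbers of at least 100 CPM, sums with an unadjusted p under 0.05, and the 5 members with the highest TPM. Also named are up to 6 members of at least 10 CPM per direction and comparison by smallest p. MER63C was singled out after its values were seen. Members, lists and superfamilies were chosen with earlier results of these data known. The edgeR fit was run on simulated counts for dox in PB cells only. Those libraries were independent and of equal spread, so paired clones and reads shared between names were not simulated. Consensus sequences were not used here.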

Additional observations from a re-analysis of the deposited data

How the results depend on the processing

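Over the 56 log2 changes of named members and sums, taken relative to the median shift of each scale, 648 alternative values kept their direction and their side of the threshold, 8 that were not called changed sign and 11 became calls, 10 of them of MER58A. Of the summary counts and medians, 181 of 195 alternative values stayed within 1.5 times or within the spread. With total counts or with ACTB and GAPDH as the scale, MER58A alone was called: 1 member higher for dox in PB cells, 1 lower for the difference of both dox responses and 1 higher for EXOSC3r against PB without dox, against 0 each with TMM. Leaving out 1 clone library at a time gave 0 to 1 calls for these 3 counts, and also 0 to 1 lower for dox in EXOSC3r cells; each call was MER58A without clone 2 with dox. With the line as a replicate block, 1 member (MER1A) was called higher for EXOSC3r against PB with dox, where the whole table had 22 calls with the block and 7 without, and no other member was called; for dox in EXOSC3r cells the whole table had 9 calls with the block and 1 without. Relative to all tested sequences, the median of members for EXOSC3r against PB was 0.073 with dox, 0.13 after summing by MER number and 0.032 to 0.078 with a clone library left out. Without dox it was 0.047, and 0.039 after summing. The cause of these shifts was not tested. Low counts limit the other 23 tested members under 10 CPM. The main fit has only 2 residual degrees of freedom, and the block fit and the fits with a clone library left out have fewer still.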
